A study of Homo sapiens with 6 samples.

Results

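The CSAG and CTAG genes are 2 small families of cancer-testis genes in band Xq28 of the X chromosome. The 7 genes described here are CSAG1, CSAG2, CSAG3, CSAG4, CTAG1A, CTAG1B and CTAG2, matched by Ensembl identifier among the 60483 rows of the count table. They were selected on their counts in HELLS KO against HAP1 in these same libraries, so their own differences between the genotypes are a description, and the calls made for them are counted without reading a test from them. RNA-seq was performed in HAP1 (C631), a near-haploid line derived from chronic myelogenous leukemia, and in a HELLS KO derivative of it, to ask how transcription changes when the chromatin remodeler HELLS is lost. The KO line is a single commercial clone in which exon 3 of HELLS carries an insertion of 1 base pair, and the HAP1 libraries are of the wild-type line. Both genotypes were grown without treatment, with 3 libraries each. Replicate 3 of both genotypes carries a batch label.

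Cancer-testis genes are normally transcribed in the germ cells of the testis and are silent in most other tissues, where DNA methylation at their promoters contributes to the silencing. Many lie on the X chromosome in families of recent copies, and tumors of many kinds transcribe them again. CTAG1A and CTAG1B encode the same antigen, NY-ESO-1, and CTAG2 encodes its relative LAGE-1, both of which are targets of T cells in patients with cancer. CSAG1 was identified as a chondrosarcoma-associated gene, CSAG2 and CSAG3 encode the taxol resistance-associated antigen TRAG-3, and CSAG4 is annotated as a pseudogene. HELLS, also called LSH, is a remodeler of the SNF2 family that takes part in DNA methylation of repeated sequences.

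Total counts were between 13641237 and 24400187 per library, so that 3 counts, the limit that a count of 0 allows, correspond to between 0.123 and 0.220 CPM (counts scaled by the library total, corrected by TMM). HELLS mRNA was counted 1444, 1488 and 3671 times in HAP1 and 1410, 1375 and 2802 times in HELLS KO (log2 fold change -0.24, SE 0.18, edgeR adjusted p = 1.00). Without HAP1 replicate 3 that log2 fold change was -0.03, and without HAP1 replicate 1 it was -0.35. An insertion of 1 base pair leaves the transcript countable, so this level does not check the genotype labels. The blood origin of the line was not visible in its markers: of 10 blood genes, 3 were at 0 in every library, SPI1 and HBG1 among them, 6 were at 3 counts or fewer in every library, and the sum over the list was 1.05 to 1.60 CPM in HAP1 and 0.840 to 1.65 CPM in HELLS KO.

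Copies of these genes are so alike that sequence decides what short reads could show, and the sequences are therefore given first. CSAG2 and CSAG3 lie on opposite strands and differ at 4 of 6281 aligned bases over the whole gene, and at 1 of 1083 aligned exon bases. The window around that exon difference is shown for both genes from GRCh38, 5′ to 3′ on the strand of each gene, with the differing base in capitals. The CSAG2 window is at chrX:152708912-152708940 on the − strand, and the CSAG3 window is at chrX:152759543-152759571 on the + strand.
CSAG2: gactgttgagagacActggtctggtgaag
CSAG3: gactgttgagagacGctggtctggtgaag
The CSAG2 form of this window is also found in CSAG4.

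CTAG1A and CTAG1B were identical over all 1674 aligned bases, introns included. CTAG2 differs more, with 41 differences over 759 aligned transcript bases (94.6% identity to CTAG1B). The window of 29 bases shown has 10 of these differences, in capitals, at chrX:154585409-154585437 on the + strand for CTAG1A, at chrX:154618988-154619016 on the − strand for CTAG1B and at chrX:154653285-154653313 on the − strand for CTAG2.
CTAG1A: cGgcttcAgGgcTgAatggaTgCtgcAGA
CTAG1B: cGgcttcAgGgcTgAatggaTgCtgcAGA
CTAG2: cCgcttcTgCgcAgGatggaAgGtgcCCC
A read over this window therefore separates CTAG2 from CTAG1, while no read within the aligned sequence separates CTAG1A from CTAG1B.

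The reads were 100 bases long at each end, and the authors kept only those with a mapping quality of at least 20. STAR gives a read that has several equally good placements a quality below that limit. Of all stretches of 100 bases in the annotated exons, 100% had a second exact match in GRCh38 for CTAG1A and CTAG1B. The share was 87.8% for CSAG2, where 82 of 673 stretches were single, and 85.0% for CSAG3, where 100 of 665 were single. It was 30.2% for CTAG2, and every repeated stretch of CTAG2 was found in CTAG1A and CTAG1B. It was 4.94% for CSAG4 and 0.522% for CSAG1, so these 2 genes could be counted along nearly their whole length. The counts of CSAG2, CSAG3, CTAG1A and CTAG1B are uncertain for this reason, and a low count or a 0 in them is not a measured low level.

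**Figure D1:**
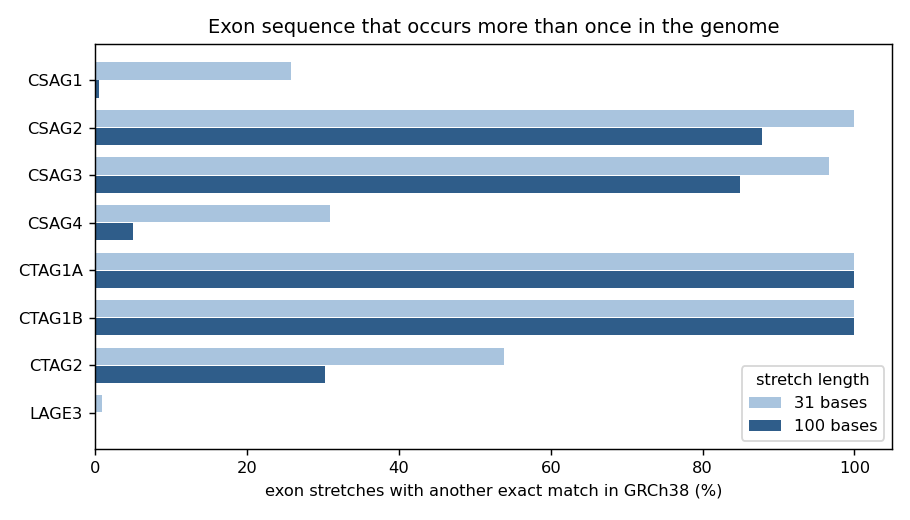
Share of exon stretches (x axis, percent) of each gene (y axis) that have another exact match in GRCh38 on either strand, for stretches of 31 bases (light) and 100 bases (dark). CTAG1A and CTAG1B reach 100% at both lengths, CSAG2 and CSAG3 stay at 87.8% and 85.0% at 100 bases, and CSAG1 is at 0.522%; LAGE3, a more distant relative of the CTAG genes, has 0 repeated stretches of 100 bases.

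The CSAG genes were nearly uncounted in HAP1 and were counted between 40 and 777 times in each HELLS KO library. CSAG1 (ENSG00000198930, GRCh38 X from 152727484 to 152733735, − strand) had 0, 0 and 2 counts in HAP1 replicates 1, 2 and 3 and 593, 502 and 777 counts in HELLS KO replicates 1, 2 and 3. Every KO library lay far above every HAP1 library, and the mean in HELLS KO was 35.9 ± 4.48 CPM (SD, n = 3). The ratio of the pooled libraries was 914, with an exact 95% counting interval of 253 to 7556, and the fitted log2 fold change was 9.64 (SE 0.47). Counting intervals and floors cover counting error only.

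CSAG3 (ENSG00000268916, X from 152753921 to 152760222, + strand), which encodes TRAG-3, had 0 counts in each HAP1 library and 237, 158 and 369 counts in the KO libraries. Its mean in HELLS KO was 14.2 ± 2.75 CPM (SD, n = 3), at least 249-fold higher than in HAP1 when 3 counts are taken as the limit over the pooled HAP1 libraries. CSAG2 (ENSG00000268902, X from 152708261 to 152714549, − strand), its near-identical copy, also had 0 counts in each HAP1 library and had 99, 68 and 161 counts in the KO libraries, a mean of 6.06 ± 1.13 CPM (SD, n = 3) and at least 107-fold higher. The genotypes did not overlap for either copy. In the KO libraries CSAG2 took 29.5%, 30.1% and 30.4% of the counts of the pair (exact Clopper-Pearson 95% intervals 24.6 to 34.7, 24.2 to 36.5 and 26.5 to 34.5). The split between the copies was thus the same within counting error in the 3 libraries. Where in the copies the counted reads fell was not tested.

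CSAG4 (ENSG00000242599) had 0 counts in each HAP1 library and 96, 40 and 125 counts in HELLS KO, a mean of 4.84 ± 1.92 CPM (SD, n = 3) and at least 85.0-fold higher. The KO libraries varied more for this pseudogene than for its relatives, with the lowest value in replicate 2, but none approached the HAP1 libraries. The identifier spans X from 152739864 to 152740681 on the + strand in GENCODE release 44, whereas the length behind the FPKM values of the authors is 755 bases. That is the exon length of this record together with a further one of the same symbol, whose first exon shares 33 bases with MAGEA12 on the same strand. Reads in that stretch cannot be told apart, while the remaining exons of CSAG4 overlap no other annotated exon.

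CTAG2 (ENSG00000126890, X from 154651972 to 154653579, − strand) was the most counted of the 7 genes. HAP1 libraries held 0, 0 and 2 of its reads and KO libraries 967, 825 and 1155, a mean of 57.2 ± 9.53 CPM (SD, n = 3). The ratio of the pooled libraries was 1440 (exact 95% counting interval 398 to 11893), and the fitted log2 fold change was 10.31 (SE 0.46). All KO libraries were far above all HAP1 libraries.

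The NY-ESO-1 genes could not be measured in this way. CTAG1B (ENSG00000184033, X from 154617609 to 154619282, − strand) had 0 counts in each HAP1 library and 11, 9 and 3 counts in HELLS KO, at least 7.49-fold higher. CTAG1A (ENSG00000268651, X from 154585133 to 154586816, + strand) was counted 0, 0 and 1 times in HAP1 and 14, 0 and 0 times in the KO libraries, so the genotypes overlapped. Its pooled ratio of 13.7 has an exact counting interval of 2.08 to 578. CTAG1A held 14 of 25 counts of the pair in KO replicate 1 (56.0%, exact 95% interval 34.9 to 75.6), but 0 of 9 in replicate 2, which allows a share of up to 33.6%, and 0 of 3 in replicate 3. No exon stretch of 100 bases is single in either gene, and where these few reads came from was not tested.

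**Figure D2:**
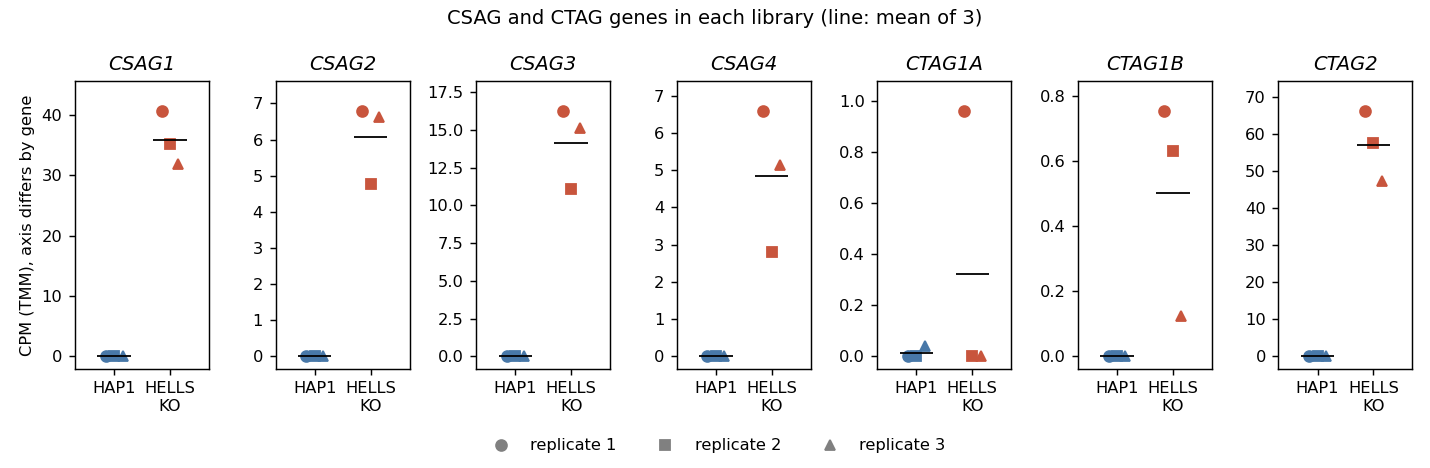
CPM (y axis, TMM-scaled, a separate axis for each gene) of the 7 genes in the 3 HAP1 (blue) and 3 HELLS KO (red) libraries; the symbol marks the replicate and the line the mean of 3. HAP1 libraries lie at or near 0 for all 7 genes, while HELLS KO libraries reach a mean of 57.2 CPM for CTAG2 and 35.9 CPM for CSAG1; CTAG1A and CTAG1B stay under 1 CPM.

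Of the 7 genes, 5 passed the filter on low counts (CSAG1, CSAG2, CSAG3, CSAG4 and CTAG2) and all 5 were called higher in HELLS KO, at an edgeR adjusted p under 0.05 and a log2 fold change of at least 1. Across the 17925 genes tested, 269 or 1.50% were called higher and 129 or 0.720% lower. Their fitted log2 fold changes were between 9.41 and 10.96 with a median of 9.73, against a median of 0.01 over all genes tested. Every HELLS KO library was above every HAP1 library for these 5 genes, and for 4.99% of the genes tested. The same order held for CTAG1B, which was not tested. Its 3 counts in KO replicate 3 are no more than a HAP1 count of 0 allows, so its genotypes are not separated. The number of calls and the lack of overlap were fixed by the selection of the genes and are not evidence about them. All 5 counts of the 7 genes in HAP1 came from replicate 3, the deepest HAP1 library.

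Compared per length, in the FPKM values of the authors, the order of the levels in HELLS KO was CTAG2, CSAG1, CSAG3, CSAG2, CSAG4, CTAG1B and CTAG1A. CTAG2 was at 65.9, 56.7 and 47.2 FPKM in KO replicates 1, 2 and 3 (56.6 ± 9.35, SD), and CSAG1 was at 36.8, 31.4 and 28.9 FPKM (32.3 ± 4.02). CSAG3 was at 20.3, 13.7 and 19.0 FPKM (17.7 ± 3.53). The ranges of these 3 genes did not overlap. CSAG2 followed at 8.12, 5.62 and 7.92 FPKM (7.22 ± 1.39) and CSAG4 at 8.61, 3.61 and 6.72 FPKM (6.31 ± 2.52), and these neighbors in the order overlapped. CTAG1B and CTAG1A were last, at means of 0.492 ± 0.327 and 0.318 ± 0.551 FPKM, and also overlapped. FPKM divides by the full length, including the repeated part, so the places of CSAG2, CSAG3, CTAG1A and CTAG1B in this order are uncertain. The FPKM of CTAG2, with 30.2% of its stretches of 100 bases repeated, has the same limit to a smaller extent.

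The ratio between KO libraries differed between the genes with higher and lower counts. Replicate 3 of HELLS KO held 1.68 times the total counts of the mean of replicates 1 and 2. For CTAG2 the ratio of counts was 1.29 and for CSAG1 1.42, but for CSAG2, CSAG3 and CSAG4 it was 1.93, 1.87 and 1.84. The same order was present across all genes when they were ranked by counts per base of gene length. Genes with 0.02 to 0.1 counts per base had a median ratio of 1.89, genes with 0.5 to 0.7 had 1.42 and genes with 1 to 1.5 had 1.20. CSAG1, with 0.572 counts per base, and CTAG2, with 0.990 counts per base and a class median of 1.30, were within 0.02 of the median of their class. CSAG4 and CSAG2 share a class with a median of 1.84, near the ratio of CSAG4 and below that of CSAG2, and CSAG3, with 0.323 counts per base, was above its class median of 1.62. Counts per base use the full length, so the classes of CSAG2 and CSAG3, whose exons are largely repeated, are uncertain. The authors removed duplicate reads, and the part of that step in these ratios was not tested.

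The CSAG genes are interleaved with MAGEA genes, and 3 of them start head-to-head with one. CSAG1 and MAGEA12 start 22 bases apart on opposite strands, and CSAG2 with MAGEA2B and CSAG3 with MAGEA2 start 37 bases apart. MAGEA genes encode cancer-testis antigens that bind E3 ubiquitin ligases. In the CSAG1 pair, MAGEA12 was at 59.5, 52.0 and 46.9 FPKM in KO replicates 1, 2 and 3, which is 1.62, 1.66 and 1.62 times the FPKM of CSAG1. The ratio within this pair, whose genes are mostly single in the genome, was thus nearly the same in each library. In the other pairs the MAGEA partner was the lower of the pair, at 0.296, 0.311 and 0.159 times CSAG2 for MAGEA2B and 0.0967, 0.202 and 0.0932 times CSAG3 for MAGEA2. For MAGEA2 and MAGEA2B 100% of exon stretches of 100 bases are repeated, so these ratios set one largely uncountable gene against another.

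**Figure D3:**
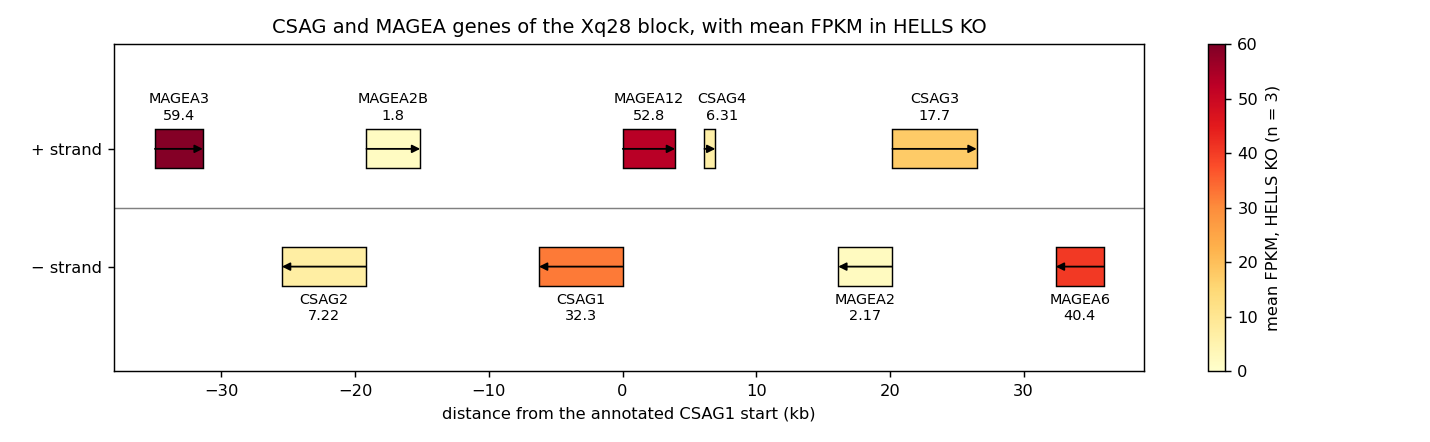
Map of the CSAG and MAGEA genes around the annotated start of CSAG1 (x axis, distance in kb), with genes of the + strand above and of the − strand below, arrows in the direction of transcription, and color and number giving the mean FPKM in 3 HELLS KO libraries. CSAG1 and MAGEA12 form a head-to-head pair at 32.3 and 52.8 FPKM, and CSAG2 and CSAG3 lie on the outer sides at 7.22 and 17.7 FPKM.

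The promoter sequences of RefSeq (GRCh38.p14) cover 250 bases before to 50 bases after a gene start, and 2 of the 7 genes were matched, CSAG1 and CSAG3. They are shown because these genes were counted in HELLS KO together and because the windows also hold the start region of the MAGEA partner. Each partner has more than 1 RefSeq window, and the largest overlap was 240 bases (MAGEA12) and 178 bases (MAGEA2). The CSAG1 window is placed on a RefSeq start at 152733721, whereas the distance to MAGEA12 above uses the annotated start at 152733735. The CSAG1 promoter is at chrX:152733672-152733971 on the − strand and the CSAG3 promoter is at chrX:152753671-152753970 on the + strand. Capitals mark CpG dinucleotides, the sites at which DNA methylation occurs.
CSAG1: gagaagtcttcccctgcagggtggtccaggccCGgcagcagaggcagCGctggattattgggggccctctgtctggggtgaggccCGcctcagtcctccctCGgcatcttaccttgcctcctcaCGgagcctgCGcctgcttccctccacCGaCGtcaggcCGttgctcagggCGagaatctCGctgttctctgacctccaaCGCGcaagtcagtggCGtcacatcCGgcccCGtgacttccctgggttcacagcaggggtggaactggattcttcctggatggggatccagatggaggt
CSAG3: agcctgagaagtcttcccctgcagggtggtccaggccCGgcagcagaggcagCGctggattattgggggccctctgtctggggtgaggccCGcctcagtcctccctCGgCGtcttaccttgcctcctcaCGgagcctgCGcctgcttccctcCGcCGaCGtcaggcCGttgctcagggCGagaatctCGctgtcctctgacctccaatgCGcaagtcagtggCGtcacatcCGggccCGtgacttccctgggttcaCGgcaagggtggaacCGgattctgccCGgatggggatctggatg
The promoters were 95.9% identical, with 12 differences over 295 aligned bases. CSAG1 had 16 CpG sites and CSAG3 had 20, against a median of 14 over 35116 promoters (quartiles 4 and 28). Both are thus near the middle of all promoters in CpG number, at 63.7% and 65.3% GC. DNA methylation was not measured in these libraries. The study measured it globally by ELISA and reported no effect of HELLS loss on its level in HAP1 cells. A global level does not give the state of single promoters.

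Short motifs were searched on both strands of these windows. CCGGAT, which holds a core bound by ETS factors, occurred 1 time in the CSAG1 window and 3 times in the CSAG3 window, and in 7.12% of all promoters. TGACGT, bound by factors of the CREB and ATF families, occurred 1 time in each and in 7.98% of promoters. GGGCGG, the GC box, and TATAAA, the TATA box, occurred 0 times in both windows, and in 45.0% and 11.5% of promoters. No match of one motif overlapped a match of another. A match describes letters in the window and not a bound site.

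MAGEA genes beyond the pairs, both in the CSAG block and elsewhere on the X chromosome, were also counted in HELLS KO. Of 15 MAGEA genes listed, the pair partners MAGEA12, MAGEA2 and MAGEA2B among them, 11 were tested, 10 were called higher and 0 lower. Over all genes tested, 1.50% were called higher and 0.720% lower. The median log2 fold change of the MAGEA list was 9.46. MAGEA5P, MAGEA7P, MAGEA9 and MAGEA13P had 0 counts in every library. For MAGEA9, 88.6% of exon stretches of 100 bases are repeated in MAGEA9B, so its 0 is not a measured absence. Without HELLS KO replicate 2, 8 of the MAGEA genes were called, MAGEA2B (edgeR adjusted p = 0.053) and MAGEA9B (0.11) being lost. MAGEA9B was also lost without HAP1 replicate 1 (edgeR adjusted p = 0.051), HELLS KO replicate 1 (0.089) or HELLS KO replicate 3 (0.064). With replicates 1 and 2 only it was lost as well (0.055). The 4 with the highest mean CPM in HELLS KO were MAGEA3, MAGEA12, MAGEA6 and MAGEA1, which per length were at 59.4, 52.8, 40.4 and 21.1 FPKM. The counts of MAGEA3 were 0, 2 and 0 in HAP1 and 1671, 1633 and 2319 in the KO libraries. The tested member not called was MAGEA8, with a log2 fold change of 1.56 (SE 0.77, edgeR adjusted p = 0.97). The MAGEA list was also chosen with these results known.

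Outside these families the neighborhood differed less between the genotypes. Of 26 counted genes within 100 kb that are neither CSAG nor CTAG genes, 15 were tested, 6 were called higher and 0 lower. The shares over all genes tested were 1.50% higher and 0.720% lower. Without HELLS KO replicate 2, 5 of these neighbors were called, as MAGEA2B was lost. The 6 were MAGEA2, MAGEA2B, MAGEA3, MAGEA6, MAGEA12 and an unprocessed pseudogene (ENSG00000226141) that begins 967 bases from CTAG2. MAGEA3 and MAGEA6 were the nearest tested genes on either side of the CSAG genes, each 5914 bases away. The pseudogene had 0 counts in each HAP1 library and 48, 32 and 71 counts in HELLS KO, or 2.82 ± 0.536 CPM (SD, n = 3; edgeR adjusted p = 0.0069). Without the MAGEA genes, 1 of 10 tested neighbors was called, and their median log2 fold change was 0.06.

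On the outer side of the CSAG genes, GABRQ, a subunit of GABA-A receptors, was at 3.24 ± 1.29 CPM in HAP1 and 11.9 ± 4.89 CPM in HELLS KO and did not pass the adjusted threshold (log2 fold change 1.89, SE 0.39, edgeR adjusted p = 0.068). With the replicate number as a block its edgeR adjusted p was 0.015 and with the batch label as a term 0.018, so the call depends on the fit. CETN2, a centrin, and NSDHL, an enzyme of cholesterol synthesis, both had a log2 fold change of 0.06. On either side of the CTAG genes, the nearest tested protein-coding genes were IKBKG and GAB3, neither of which was called. IKBKG, a regulator of NF-kappa-B signaling, was 20087 bases away (log2 fold change 0.18) and GAB3, an adaptor protein gene, 21670 bases away (0.48). The called pseudogene ENSG00000226141 lies nearer than GAB3, 967 bases from CTAG2.

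LAGE3, the relative of the CTAG genes that is transcribed in most tissues, encodes a subunit of the KEOPS complex, which modifies transfer RNA. It was counted 860, 839 and 917 times in HAP1 and 1006, 849 and 996 times in HELLS KO, or 53.2 ± 13.0 and 56.5 ± 14.3 CPM (log2 fold change 0.09, SE 0.25, edgeR adjusted p = 1.00). The genotypes overlapped. Per length, LAGE3 was at 71.7, 61.0 and 42.6 FPKM in HELLS KO, a range that overlaps that of CTAG2, and at 63.2, 63.7 and 39.4 FPKM in HAP1, where no CSAG or CTAG gene passed 0.1 FPKM. Stretches of 100 bases are repeated for 30.2% of CTAG2 and 0% of LAGE3, so the overlap of their ranges is uncertain. None of the 5 KEOPS genes was called at the adjusted threshold by edgeR or DESeq2, 0 had an unadjusted p under 0.05, and their log2 fold changes were between -0.01 and 0.18. Over all genes, 1181 of 17925 tested had an unadjusted edgeR p under 0.05, so such counts do not set a list this short apart.

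Cancer-testis antigens are displayed to T cells through the class I presentation pathway, which was examined as a list of 21 genes. Of 20 tested, 0 were called by edgeR and 1 had an unadjusted p under 0.05, against 1181 of 17925 over all genes. PSMB8, a subunit of the immunoproteasome, had the largest change (log2 fold change 0.79, SE 0.22, edgeR adjusted p = 0.24), followed by ERAP2, an aminopeptidase that trims peptides (0.60, adjusted p = 0.83). The median of the list was 0.04. In the fit with the replicate block PSMB8 reached an edgeR adjusted p of 0.017 but stayed under the required log2 fold change of 1.

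A list of 18 regulators was examined next, which holds enzymes of DNA methylation and demethylation, chromatin repressors and the transcription factors CTCF, CTCFL and SP1. Of these, 17 were tested, 0 were called by edgeR and 0 had an unadjusted p under 0.05, against 1181 of 17925 over all genes. DNMT1, which maintains DNA methylation, had a log2 fold change of -0.03 and DNMT3B, which sets it de novo, one of -0.10. The largest were TET3 (0.24, SE 0.36) and TET2 (0.19, SE 0.51), both oxidases of methylated cytosine. Both turned with the libraries used: without HELLS KO replicate 3 they were -0.04 (TET3) and -0.31 (TET2), and without HAP1 replicate 3 they were 0.60 and 0.76. Without HAP1 replicate 2, TET2 was at -0.08. CTCFL, a germline factor that activates several cancer-testis genes, was counted 12, 10 and 0 times in HAP1 and 4, 6 and 5 times in HELLS KO and was not tested.

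Markers of germ cells, in which the CSAG and CTAG genes are normally transcribed, did not move together. Of 8 spermatid markers, PRM1, PRM2, AKAP4 and SMCP were at 0 in every library and 7 were at 3 counts or fewer in every library, with sums of 1.20 to 3.13 CPM in HAP1 and 2.17 to 2.68 CPM in HELLS KO. The 6 markers of spermatogonia and spermatocytes summed to 54.3 to 85.9 CPM in HAP1 and 48.9 to 60.1 CPM in HELLS KO. That overlap came from MAGEA4, itself a cancer-testis gene, which was called higher (0.168 to 25.1 CPM). Without it the sums were 54.2 to 85.5 CPM in HAP1 and 25.2 to 33.3 CPM in HELLS KO, so that the summed level no longer overlapped. DAZL and UTF1 made up most of that sum. SYCP3 went the other way, with means of 1.68 CPM in HAP1 and 2.33 CPM in HELLS KO (log2 fold change 0.46, SE 0.38), and was not called. UTF1, a transcription factor of undifferentiated spermatogonia, was counted 620, 562 and 148 times in HAP1 and 229, 158 and 54 times in HELLS KO (log2 fold change -1.65, SE 0.85, edgeR adjusted p = 1.00). With the replicate number as a block its edgeR adjusted p was 0.00049, and with the batch label as a term 0.00076. DAZL, a germ cell RNA-binding protein, was called lower. DAZL fell from 41.7 ± 3.74 to 17.6 ± 2.81 CPM (log2 fold change -1.24, SE 0.17, edgeR adjusted p = 0.013), a call lost without HAP1 replicate 1 (0.055) or HELLS KO replicate 2 (0.090). DDX4 and STRA8 were at 3 counts or fewer in every library. The 5 melanocyte markers, of a cell type in whose tumors CTAG genes are often transcribed, summed to 6.46 to 7.27 CPM in HAP1 and 5.53 to 8.09 CPM in HELLS KO.

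The genes whose values over the 6 libraries were most like those of each gene were found by Euclidean distance of log2(CPM + 0.5). For CSAG1 they were MAGEA1 (0.490), the long non-coding RNA LINC00839 on chromosome 10 (0.518) and NDN on chromosome 15 (0.582). For CTAG2 they were NDN (0.687), MAGEA6 (0.790) and LINC00839 (0.856). NDN, an imprinted gene, was counted 0, 0 and 2 times in HAP1 libraries and 706, 576 and 1095 times in KO libraries. For CSAG2 they were the chromosome 19 gene ENSG00000267053 (0.320), the imprinted SNRPN (0.378) and AURKC, a meiotic Aurora kinase (0.413). For CSAG3 they were SSX3 (0.501) and GAGE1 (0.547), which belong to other cancer-testis families of the X chromosome, and ZNF239 (0.614). For CSAG4 they were LINC02714 (0.526), ZNF204P (0.736) and PAGE2B (0.743). The distance measures likeness of level as well as of pattern over 6 libraries that share their genotypes, and it carries no test.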

How the data were processed

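RNA-seq libraries of HAP1 and HELLS KO, 3 each, were prepared from total RNA with a directional kit. Per the methods of the study, the authors aligned read pairs to GRCh38, discarded duplicates, required a mapping quality of 20 or more, and deposited raw gene counts. The processing notes of the submitters name STAR 2.7.3a, featureCounts 2.0.6 and DESeq2 1.44.0. The annotation version, the strand setting and the treatment of reads with several placements in counting are not given in the sources used here. The authors also deposited FPKM values of 24956 genes, those with more than 10 counts over the libraries, and 100% of them were recomputed from the counts within 0.1%.

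Of the identifiers, 56321 were matched to GENCODE release 44. Counts were tested across all genes with edgeR 4.0.16 in R 4.3.3 (filterByExpr with a minimum count of 10, TMM, quasi-likelihood test, Benjamini-Hochberg adjustment), with calls at adjusted p values below 0.05 and log2 changes of 1 or more in either direction. CPM uses TMM-scaled totals. The records do not say whether libraries of a genotype came from separate cultures beyond calling them biological replicates. Folds against HAP1 at 0 use 3 counts over the pooled HAP1 libraries, and other ratios carry exact binomial intervals (95%). Exon stretches of 100 bases, or 31 as an alternative, were compared with all of GRCh38.

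The genes and lists were chosen with earlier results of these data known. Named were all 7 genes, the 4 MAGEA genes highest in HELLS KO, called neighbors within 100 kb and the nearest tested protein-coding ones. LAGE3, the 2 largest changes of the other lists, and the 3 most alike genes of each gene of at least 1 CPM were also named. CETN2, NSDHL, DNMT1, DNMT3B, CTCFL, MAGEA8, MAGEA9B, UTF1 and DAZL were named after their values were seen, and 1 neighbor and 1 blood marker are not reported here by name. Same-numbered replicates deviated together across 16603 genes (r = 0.46, 0.24 and 0.81), and replicate 3 shares a batch label, so the numbers were treated as pairs in an alternative. HAP1 replicate 2 and HELLS KO replicate 1, which do not share a number, correlated at 0.65, above the values of pairs 1 and 2. Alternatives were DESeq2 1.42.0, other size factors, no filter, a replicate block, a batch term, each library left out, replicates 1 and 2 only, and limma 3.58.1 on log2(FPKM + 1) and log2(FPKM + 0.1). The fits were tested on simulated data.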

Additional observations from a re-analysis of the deposited data

How the results depend on the processing

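For CSAG1, CSAG2, CSAG3, CSAG4 and CTAG2, 75 of 75 values under the alternatives kept direction and call, which the selection of these genes on the same contrast largely fixes. Without HAP1 replicate 3, which held all their HAP1 counts, the fitted log2 fold change of CSAG1 moved to 12.19 and that of CTAG2 to 12.86. Fitted folds of genes at 0 depend on the prior count. Of all genes, 426 were called higher and 244 lower with DESeq2, 415 and 200 with no filter, 363 and 267 with the replicate block, 285 lower with the batch term and 219 lower with replicates 1 and 2 only. Leaving out 1 library gave 112 to 273 higher and 40 to 176 lower, lowest without HELLS KO replicate 2. Fewer were also called without HAP1 replicate 1 (173 higher and 69 lower), HELLS KO replicate 1 (160 and 62) or HAP1 replicate 2 (84 lower). The paired fit with the replicate block, the batch term, DESeq2 and no filter called 2 neighbors other than MAGEA genes instead of 1, GABRQ being added. The block also called UTF1, and it changed no other call of a named gene. At 31 bases, 25.8% (CSAG1), 100% (CSAG2), 96.7% (CSAG3), 30.9% (CSAG4) and 53.8% (CTAG2) of exon stretches were repeated. CTAG1A and CTAG1B were below the filter of the main fit, and neither was called with DESeq2 or with no filter. CTAG1B had log2 fold changes of 5.49 (DESeq2 adjusted p = 0.051) and 6.11 (no filter, edgeR adjusted p = 0.070). Those of CTAG1A were 3.90 and 3.64. The sum of germ cell markers without MAGEA4 was chosen after seeing the data. Depth limits HAP1 values to 0.124 to 0.220 CPM.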
